A study of Mus musculus with 4 samples.

Results

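The neuroligin and neurexin genes were followed across 4 mouse tumors, and 5 of them with a sequenced promoter are given here, of 20788 genes that had one. Nlgn3 was chosen by its lower promoter methylation in 344SQR than in 344SQP tumors in these same data. That contrast is therefore given for Nlgn3 as a description, with no test. Nlgn1, Nlgn2, Nrxn2 and Nrxn3 were taken with it, from its family and its binding partners. Nlgn4l is not placed in the gene annotation used.

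Neuroligins and neurexins are cell-surface proteins that bind each other across the cleft between nerve cells and help to form and tune synapses. Neuroligins stand on the receiving, postsynaptic side, and neurexins on the sending, presynaptic side, where each neurexin gene makes longer and shorter proteins from separate promoters. Both families are known mainly from neurons, and a shed form of neuroligin 3 is known to promote the growth of glioma.

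344SQP is a mouse lung adenocarcinoma line with mutant p53, and 344SQR is a line derived from it that resists antibody against PD1, an inhibitory receptor of T cells. For each tumor, 500000 cells of 1 line were placed under the skin of the leg of a female 129Sv/Ev mouse aged 12 to 16 weeks, a host with its immune system intact. Anti-PD1 treatment of all 4 hosts began on day 4 and comprised 4 doses (10 mg/kg each), and tumors were removed 24 hours after the final dose. Each line is represented by 2 tumors, named here by line and replicate number, and the comparison asks where methylation differs between tumors of the parental and of the resistant line under treatment.

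The assay, reduced representation bisulfite sequencing, reads cytosines in CpG-rich fragments as methylated or not. Calls at CpG cytosines, where a read counts once for each cytosine it covers, came to 116794455 in 344SQP replicate 1, 138331886 in 344SQP replicate 2, 160548303 in 344SQR replicate 1 and 174689402 in 344SQR replicate 2. A site is the cytosine of a CpG on 1 strand with at least 20 reads in all 4 tumors, and 1081201 sites qualified, with a mean of 103, 121, 140 and 144 reads in the same order. A promoter window runs from 1000 bp before to 500 bp after a transcription start, and its value is the mean of its sites' percentages. A tumor's methylation mixes that of its tumor and host cells, so a change within cells and a change in the shares of cells cannot be told apart.

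The 5 genes have 24 transcription starts, of which 16 have a qualified site in their window and 8 have none. Starts whose windows hold the same sites count as 1 window, which leaves 9 windows, 8 of them outside Nlgn3. Those 8 are not independent, since 2 neighbouring starts of Nrxn2 share most of their sites. They were tested in 2 ways over all 28782 promoter windows with Benjamini-Hochberg adjustment, and called at a false discovery rate (FDR) under 0.05. The likelihood ratio test works per site on reads and combines the sites of a window, and it takes no account of how far 2 tumors of a line differ. The quasi-likelihood test of edgeR works on the window's summed reads and does take account of it. With 2 tumors against 2, an exact permutation test could not give a p below 0.333, so none was run.

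The likelihood ratio test called 5 of the 8 windows, beside 37.5% of all promoter windows. Of these, 4 were higher in 344SQR, beside 9.29% of all windows, and 1 was lower, beside 28.2%. These counts hung on single tumors, with 1 higher and 3 lower without 344SQP replicate 1, 6 and 0 without 344SQP replicate 2, 6 and 1 without 344SQR replicate 1, and 0 and 3 without 344SQR replicate 2. Over all 28782 windows the same 4 runs called 10236, 9711, 11841 and 9296 in either direction. With all tumors, the 4 higher windows belong to Nlgn2 and Nrxn2, and the lower one to Nlgn1. edgeR called 0 of the 8 windows, beside 0.136% of all windows (39 windows), its FDR ran from 0.734 to 0.981, and 0 of the 8 had an unadjusted p under 0.05, beside 2388 of all. limma on log ratios of the reads also called 0 of the 8, and 0 of all 28782 windows. The difference between the lines was within the SD of a line in most of these windows, and only 1 of the 8, at Nrxn2, had lines that did not overlap. It was higher in 344SQR, as were 7.69% of all promoter windows.

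**Figure D1:**
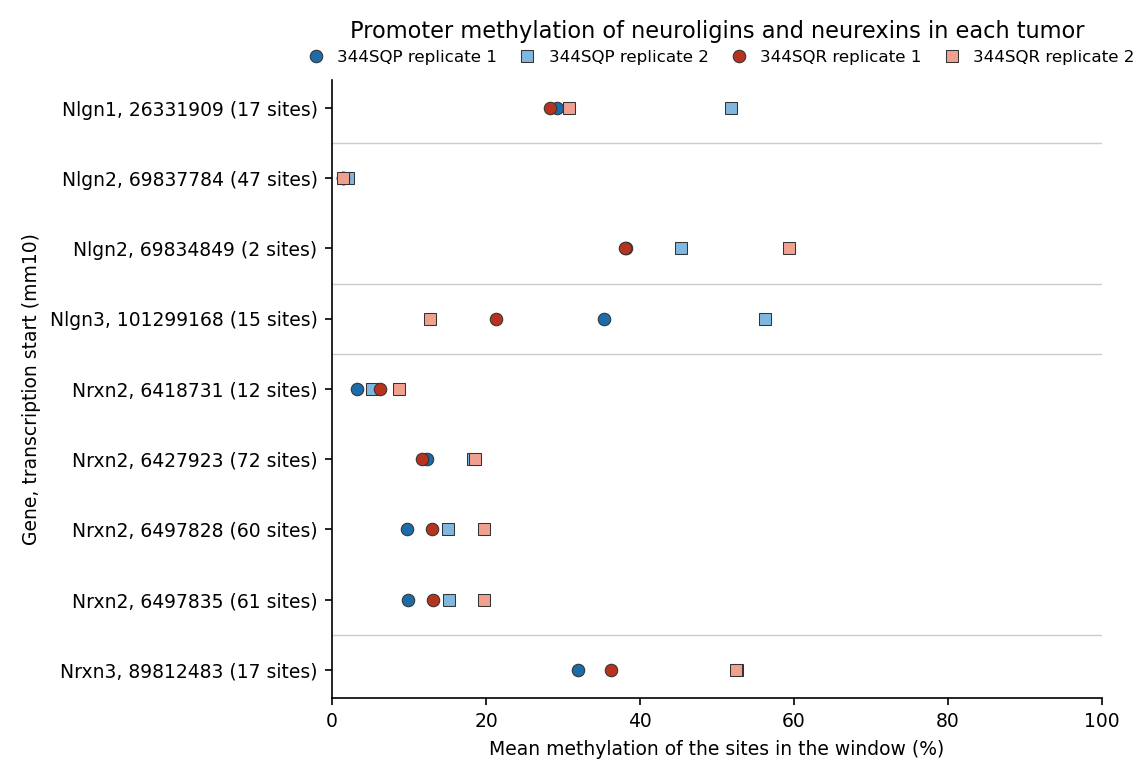
Mean methylation (%, x axis) of each promoter window of the 5 genes (y axis, with the transcription start and the number of sites) in each of the 4 tumors, as points. The Nlgn2 window at 69837784 lies at or below 2.04% in every tumor, and squares (replicate 2) stand to the right of circles (replicate 1) of the same line except in 344SQR at Nlgn3 and at Nlgn2 69837784.

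Ordered by the window with the most sites in each gene, the mean of the 344SQP tumors rose from 1.73% at Nlgn2 to 15.4% at Nrxn2. Nlgn1 (40.5% ± 16.0, SD, n = 2), Nrxn3 (42.3% ± 14.7, SD, n = 2) and Nlgn3 (45.8% ± 14.8, SD, n = 2) lay above both. In 344SQR, Nlgn3, chosen for its low value there, was at 17.0% ± 6.06 (SD, n = 2), Nlgn1 at 29.5% ± 1.71 (SD, n = 2) and Nrxn3 at 44.4% ± 11.4 (SD, n = 2).

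Nlgn3 (ENSMUSG00000031302) lies on chromosome X, and its product is a postsynaptic receptor. Its 4 annotated starts, from 101299168 to 101299210 on the plus strand of mm10, share the same 15 sites at 9 CpGs between 101299144 and 101299370, each read 60 to 166 times in every tumor. The window's methylation was 35.3% in 344SQP replicate 1, 56.2% in 344SQP replicate 2, 21.3% in 344SQR replicate 1 and 12.7% in 344SQR replicate 2. Both 344SQR tumors stood below both 344SQP tumors, which is what the gene was chosen for, and the same order held at 31.7% of all promoter windows, from which nothing is read here. The difference was -28.8 points (344SQR minus 344SQP), and it ran from -39.2 to -18.3 points when any 1 tumor was left out. The 344SQP tumors themselves lay 20.9 points apart.

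The 15 sites were all lower in 344SQR without overlap between the lines, by -43.3 to -13.7 points with a median of -26.3. Nlgn3 was chosen for this order, and no share over all qualified sites is given, so nothing is read from this count. Of the 15 sites, 9 lie upstream of the first start, 5 in the untranslated first exon and 1 in the intron after it. The 9 upstream sites averaged 34.0%, 55.9%, 20.1% and 9.74% in 344SQP replicates 1 and 2 and 344SQR replicates 1 and 2. The 5 exon sites averaged 38.3%, 59.7%, 24.6% and 18.1%, so the order of the tumors was the same on either side of the start.

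The widest gap was at 101299172, 4 bp after the first start, where 48.0% of 98 reads, 59.6% of 99, 12.6% of 143 and 8.40% of 119 were methylated in the same order of tumors. The 95% Wilson intervals there ran from 38.3% to 57.7% and from 49.7% to 68.7% in the 344SQP tumors, and from 8.11% to 19.0% and from 4.63% to 14.8% in the 344SQR tumors. Reads copied by PCR are not independent molecules, so the intervals speak for counting error alone.

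The narrowest gap was at 101299196, 28 bp after the start, with 55.0% of 111 reads, 70.4% of 125, 52.4% of 166 and 45.5% of 132. There the intervals ran from 45.7% to 63.9% in 344SQP replicate 1 and from 44.8% to 59.9% in 344SQR replicate 1. This site held more methylation in the 344SQR tumors than its neighbours did. At the most upstream site, 101299144, 344SQR replicate 1 held 48.6% and 344SQR replicate 2 held 19.3%, beside 53.1% and 66.0% in the 344SQP tumors, so the 344SQR tumors were farther apart there than over the window.

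**Figure D2:**
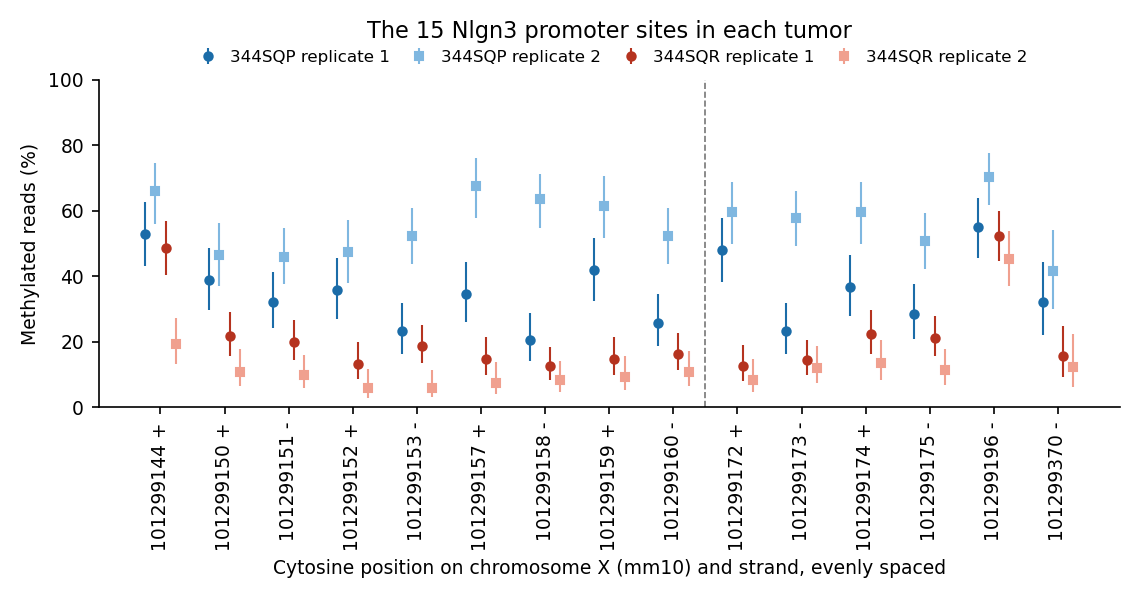
Methylated reads (%, y axis) at each of the 15 Nlgn3 promoter sites (x axis, position on chromosome X and strand) in each tumor, with 95% Wilson intervals as bars and the first start as a dashed line. Both 344SQR tumors lie below both 344SQP tumors at each site, with the narrowest gap at 101299196.

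Away from the promoter, 2 windows of 1000 bp within coding exons of Nlgn3 had at least 3 sites, and they are described without a test for the same reason. The window at chrX:101302001-101303000 (11 sites) held 90.2%, 91.0%, 89.4% and 85.1% in 344SQP replicates 1 and 2 and 344SQR replicates 1 and 2. The window at chrX:101319001-101320000 (13 sites) held 90.0%, 87.9%, 83.0% and 71.5%. These coding windows of Nlgn3 were thus at 71.5% or more in all 4 tumors, and its promoter at 56.2% or less.

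Female cells carry an inactive X chromosome whose CpG-rich promoters are methylated, so the Nlgn3 values were set beside those of the other X-linked promoters. The 505 windows of 358 X-linked protein-coding genes with at least 5 sites had medians of 26.5%, 17.1%, 22.7% and 11.4% in 344SQP replicates 1 and 2 and 344SQR replicates 1 and 2. Autosomal windows of the same kind had medians of 1.69%, 1.73%, 1.50% and 1.59%. The Nlgn3 window was above 76.0% of the X-linked windows in 344SQP replicate 1 and above 89.1% in 344SQP replicate 2. It was above 39.2% of them in 344SQR replicate 1 and 56.4% in 344SQR replicate 2. Nlgn3 thus stood in the upper part of the X-linked promoters in 344SQP tumors and near their median in 344SQR tumors.

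Most X-linked windows were lower in replicate 2 of each line and lower in 344SQR on average. In 388 of the 505, replicate 2 was below replicate 1 in both lines, beside 3718 of 19324 autosomal windows of the same kind, and in 433 the mean of 344SQR was below that of 344SQP, beside 12548 of the autosomal ones, with a median difference of -4.16 points. The lines did not overlap in 109 of the 505, a smaller share than the 7252 of the autosomal windows. Nlgn3 followed the common order of the 344SQR tumors but not that of the 344SQP tumors, where replicate 2 was higher, as in 99 of the 505 windows. The likelihood ratio test called 387 of the 505, beside 6072 of the autosomal windows, and 219 of the 505 without 344SQR replicate 2.

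Read depth on chromosome X, relative to autosomes over cytosines read 10 times or more in each tumor, was 0.707, 0.566, 0.667 and 0.515 in the same order of tumors. It moved with the X-linked medians, being higher in replicate 1 of either line. The part of these chromosome-wide values in the Nlgn3 values was not tested.

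**Figure D3:**
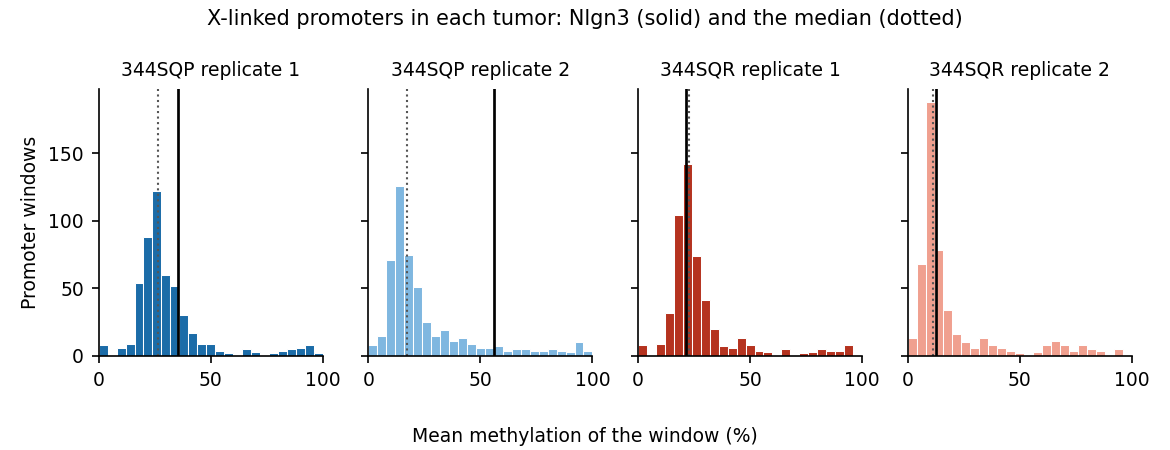
Number of X-linked promoter windows (y axis) by methylation (%, x axis) in each of the 4 tumors, with the Nlgn3 window as a solid line and the median as a dotted line. Nlgn3 stands at 35.3% and 56.2% in the 344SQP tumors, above medians of 26.5% and 17.1%, and at 21.3% and 12.7% in the 344SQR tumors, beside medians of 22.7% and 11.4%.

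The promoters most like Nlgn3, by Euclidean distance over the 4 tumor values among windows with at least 5 sites, were those of Klhl1 (distance 10.4 points), Rapgef3os2 (10.8), Wdr72 (12.1), Tceal3 (12.5) and Cxcl2 (13.8). Klhl1 held 35.0%, 55.5%, 18.5% and 22.6%, and Tceal3, the only X-linked gene among the 5, held 32.9%, 48.0%, 26.2% and 20.3%. On chromosome X, Pak3 (16.5), Armcx3 (17.0) and Stk26 (18.4) came after Tceal3. Their likeness to Nlgn3 covers 4 tumors and was selected on those same values.

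Nlgn1 (ENSMUSG00000063887, chromosome 3, minus strand) codes for a neuroligin of excitatory synapses. Of its 5 starts, only the one at 26331909 has qualified sites in its window, 17 sites within the untranslated first exon between 26331711 and 26331923, read 64 to 347 times. They held 29.2% in 344SQP replicate 1, 51.8% in 344SQP replicate 2, 28.3% in 344SQR replicate 1 and 30.7% in 344SQR replicate 2. Only 344SQP replicate 2 stood apart, and the other 3 tumors lay within 2.43 points of each other.

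The difference between the lines was -11.0 points at Nlgn1, less than the SD of the 344SQP tumors. It was called by the likelihood ratio test (FDR 5.22e-27) and not by edgeR (FDR 0.844). Without 344SQP replicate 2 the difference was 0.316 points and was not called by either test, so the call rested on that tumor. At the single site with the widest gap, 26331905, the tumors held 16.1% of 87 reads, 52.1% of 71, 4.69% of 64 and 15.1% of 126 in the order 344SQP replicates 1 and 2, 344SQR replicates 1 and 2. The 344SQP replicate 2 value again stood far from the rest.

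Nlgn2 (ENSMUSG00000051790, chromosome 11, minus strand) codes for the neuroligin of inhibitory synapses. The window of its first start, 69837784, holds 47 sites read 27 to 239 times, with 1.41%, 2.04%, 1.45% and 1.38% in 344SQP replicates 1 and 2 and 344SQR replicates 1 and 2. This promoter was almost free of methylation in all 4 tumors, and neither the likelihood ratio test (FDR 0.657) nor edgeR (FDR 0.887) called its difference of -0.308 points. The largest gap at 1 of its sites was -5.88 points, at 69837563.

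The window of the second Nlgn2 start, 69834849, has only 2 sites, in a coding exon, read 109 to 170 times. They held 38.2%, 45.4%, 38.1% and 59.3% in the same order, with overlap between the lines. Their difference of 6.92 points was called by the likelihood ratio test (FDR 0.0319) and not by edgeR (FDR 0.911). It turned to -3.72 points without 344SQR replicate 2, which was the highest of the 4, and without 344SQP replicate 1 it was 3.31 points and not called. With each site's reads thinned to the lowest coverage among the tumors it was 6.66 points and not called either.

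RefSeq promoter sequences, from 250 bases before to 50 after a start on GRCm38.p6, were available for Nlgn1, Nlgn2 and Nrxn3, and not for Nlgn3 and Nrxn2. The 3 entries with qualified sites are printed 5′ to 3′ to show which CpGs the values come from, with each CpG that has a qualified site in capitals. They are chr3:26331860-26332159 (minus strand) for Nlgn1, chr11:69837735-69838034 (minus strand) for Nlgn2 and chr12:89812233-89812532 (plus strand) for Nrxn3.
Nlgn1: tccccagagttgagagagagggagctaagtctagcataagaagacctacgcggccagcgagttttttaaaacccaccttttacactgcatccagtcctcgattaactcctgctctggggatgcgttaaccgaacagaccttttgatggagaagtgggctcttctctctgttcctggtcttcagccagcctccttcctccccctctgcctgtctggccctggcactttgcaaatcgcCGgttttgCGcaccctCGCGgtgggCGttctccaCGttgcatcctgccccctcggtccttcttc
Nlgn2: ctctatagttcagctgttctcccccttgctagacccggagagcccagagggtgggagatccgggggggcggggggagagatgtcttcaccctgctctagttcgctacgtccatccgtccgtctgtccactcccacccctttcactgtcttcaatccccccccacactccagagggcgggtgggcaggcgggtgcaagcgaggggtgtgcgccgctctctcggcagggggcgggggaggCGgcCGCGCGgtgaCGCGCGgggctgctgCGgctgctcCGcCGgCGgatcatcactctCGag
Nrxn3: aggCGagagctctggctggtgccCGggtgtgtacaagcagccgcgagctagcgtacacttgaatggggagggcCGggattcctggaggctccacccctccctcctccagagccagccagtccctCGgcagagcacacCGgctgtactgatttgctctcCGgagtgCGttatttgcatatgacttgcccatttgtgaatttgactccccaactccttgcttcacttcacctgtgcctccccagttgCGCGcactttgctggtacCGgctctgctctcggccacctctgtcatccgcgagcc
These stretches hold 14, 26 and 16 CpGs, beside a median of 7 over the 32851 promoters of the table. The reads reach 6, 12 and 10 of them. In the Nlgn1 and Nlgn2 entries the capitals lie close to the start only, while in Nrxn3 they spread along the whole stretch.

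Over those CpGs, Nlgn1 sites held 23.4%, 52.0%, 18.5% and 30.0% in 344SQP replicates 1 and 2 and 344SQR replicates 1 and 2. Nlgn2 sites held 0.875%, 1.54%, 0.819% and 0.699%. Nrxn3 sites held 31.2%, 48.9%, 35.7% and 53.3%. The Nlgn2 promoter, with the most CpGs of the 3, had the least methylation in every tumor.

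Nrxn2 (ENSMUSG00000033768, chromosome 19, plus strand) had the most sites of the 5 genes, in windows at 3 places. These windows were at or below 19.8% in every tumor, beside medians of 2.02% to 2.57% over all promoter windows in the 4 tumors. At the first start, 6418731, 12 upstream sites held 3.29%, 5.17%, 6.17% and 8.74% in 344SQP replicates 1 and 2 and 344SQR replicates 1 and 2. Both 344SQR tumors were the higher, by 3.22 points on average. This rise was called by the likelihood ratio test (FDR 3.64e-07) and not by edgeR (FDR 0.734). Without 344SQR replicate 2 the difference was 1.94 points and was called by neither test. Most of it came from few sites, such as 6418279 with 4.71% of 85 reads, 6.38% of 94, 18.4% of 103 and 20.4% of 98.

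At 6427923, 72 sites, 45 in coding and 27 in untranslated exon, held 12.4%, 18.4%, 11.7% and 18.6%. The 2 replicates numbered 1 were alike, the 2 numbered 2 were alike, and the lines differed by only -0.244 points. Neither the likelihood ratio test (FDR 0.161) nor edgeR (FDR 0.972) called this Nrxn2 window. This balance depended on all 4 tumors, since the difference was -3.23 points without 344SQP replicate 1, 2.74 without 344SQP replicate 2, 3.21 without 344SQR replicate 1 and -3.70 without 344SQR replicate 2. In all 4 of these cases the likelihood ratio test called the window, 2 in each direction, and edgeR did not. Its sites did not move alike either, from -17.1 to 18.3 points.

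At the internal Nrxn2 start 6497828, 60 sites held 9.79%, 15.1%, 13.0% and 19.8%. The lines overlap there, since 344SQP replicate 2 was above 344SQR replicate 1. The likelihood ratio test called the difference of 3.93 points (FDR 1.58e-14), and edgeR did not (FDR 0.833). It was 1.29 points without 344SQP replicate 1 and 0.542 without 344SQR replicate 2, and not called in either case. The 43 sites in untranslated exon carried the gap, at 11.5%, 18.0%, 15.7% and 24.6%, while the 12 in coding exon held 3.27%, 4.93%, 4.28% and 3.92%.

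Nrxn3 (ENSMUSG00000066392, chromosome 12, plus strand) has qualified sites at 1 of its 5 starts, 89812483, with 17 sites between 89812021 and 89812497 read 42 to 253 times. They held 31.9% in 344SQP replicate 1, 52.6% in 344SQP replicate 2, 36.3% in 344SQR replicate 1 and 52.5% in 344SQR replicate 2. The tumors fell by replicate number and not by line, and the lines differed by 2.10 points, far less than the SD of either. Neither the likelihood ratio test (FDR 0.291) nor edgeR (FDR 0.981) called it. Leaving out 1 tumor moved the difference to -8.26 points without 344SQP replicate 1, 12.5 without 344SQP replicate 2, 10.2 without 344SQR replicate 1 and -5.99 without 344SQR replicate 2. Each of these 4 differences was called by the likelihood ratio test, 2 in each direction, and none by edgeR.

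The lines did not overlap at 4 of the 17 Nrxn3 sites, 3 of them lower and 1 higher in 344SQR. No share over all qualified sites is given beside this count, so nothing is read from it. No test here set single sites against the spread of the tumors. At 89812306, 177 bp upstream of the start and within an intron, 13.8% of 94 reads, 1.56% of 64, 28.3% of 127 and 35.5% of 141 were methylated in 344SQP replicates 1 and 2 and 344SQR replicates 1 and 2. It was the largest rise in 344SQR among the 17 sites, and another site of the window fell by 18.5 points.

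Most of the windows had the same tumor of each line higher, which is not particular to this family. In 7 of the 8 windows outside Nlgn3, replicate 2 was above replicate 1 in both lines, beside 37.0% of all promoter windows. The exception was the Nlgn2 window at 69837784, and neighbouring Nrxn2 starts among the 7 share most of their sites. The same order held in 65 of 144 promoter windows of proteins that bind or anchor neurexins and neuroligins, listed below. By group of these proteins, the share ran from 33.3% (6 windows) to 78.6% (14 windows). At Nrxn3 this gap was 20.7 points in 344SQP and 16.2 in 344SQR. At Nlgn1 it was 22.6 in 344SQP and 2.43 in 344SQR. The direction is opposite to that of most X-linked promoters.

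Beside this stand markers of other cells, listed by their known cell type. Of 40 marker genes, 22 had a window, and their 34 windows had medians of 16.2%, 23.8%, 17.9% and 19.2% in 344SQP replicates 1 and 2 and 344SQR replicates 1 and 2. Replicate 2 was above replicate 1 in both lines in 19 of the 34 windows, among them 6 of the 8 of leukocyte genes and 6 of the 7 of endothelial genes, but 1 of the 9 of epithelial genes. The likelihood ratio test called 18 of the 34 lower and 5 higher in 344SQR, beside 28.2% and 9.29% of all promoter windows, and edgeR called 0, with 3 at an unadjusted p under 0.05, beside 2388 of all 28782. Ptprc, Cd3d, Cd4, Cd8a, Csf1r, Cdh5 and 12 other marker genes had no window. The part of the tumors' cell makeup in the family's values was not tested.

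Within the 4 tested genes and outside every promoter window, 32 windows of 1000 bp had at least 3 sites. In 22 of the 32 the mean of 344SQR was lower, beside 43805 of all 54756 such windows, with a median difference of -5.20 points, beside -4.89 over all. Both 344SQR tumors were below both 344SQP tumors in 16 of the 32, beside 48.4% of all such windows. edgeR called 0 of the 32, beside 1.18% of all (648 windows), with a lowest FDR of 0.202. Its unadjusted p was under 0.05 in 5 of the 32, beside 11138 of all, and limma called 0 of the 32. The tumors share only a replicate number. With that number as a block, edgeR called 10 of the 32 (7 lower and 3 higher in 344SQR), beside 13325 of all 54756. Without 344SQR replicate 1 edgeR called 6 of the 32, with 10497 calls over all windows.

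Of the 23 windows within Nrxn2, 16 were lower and 7 higher in 344SQR on average, beside 43805 lower of all 54756 windows outside promoters. The lines did not overlap in 11, all of them lower, beside 48.4% of all such windows. An intron window at chr19:6420001-6421000 (3 sites) held 39.5%, 39.2%, 16.9% and 15.4%, with an edgeR FDR of 0.241. It is the largest difference in the gene, -23.2 points, and the tumors of a line lay close together. The 2 windows beside the internal starts went the other way on average, with 32.1%, 48.6%, 39.3% and 59.7% over 30 sites from 6428614 and 11.1%, 19.6%, 17.4% and 27.1% over 25 sites from 6498336. Like the neighbouring promoter windows, they had replicate 2 above replicate 1 in both lines.

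**Figure D4:**
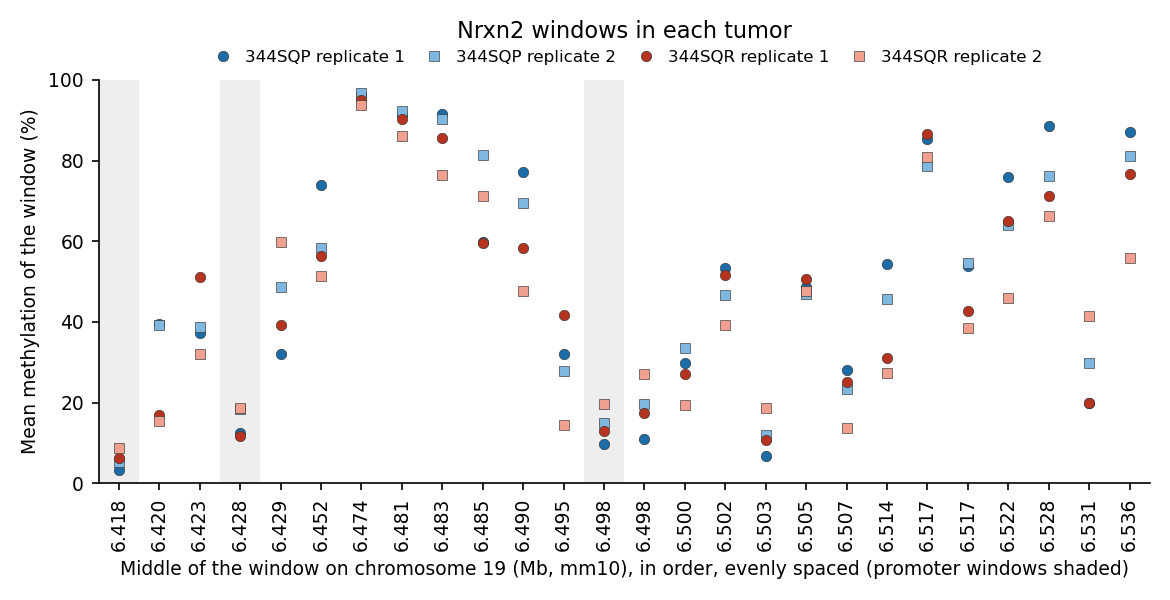
Methylation (%, y axis) of the windows within Nrxn2 in each tumor, in order along chromosome 19 (x axis, Mb), with promoter windows shaded. Promoter windows lie at or below 19.8% in all 4 tumors, and the largest gap between the lines is the window from 6420001, at 39.5% and 39.2% in 344SQP and 16.9% and 15.4% in 344SQR.

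Nrxn3 had 4 windows outside promoters, all lower in 344SQR, beside 43805 of all 54756 such windows. The lines did not overlap in 3 of them, beside 48.4% of all, and nothing is read from so few windows. The widest gap was in an intron at chr12:88984001-88985000 (6 sites), with 44.0%, 61.5%, 29.7% and 35.5% and an edgeR FDR of 0.407. Nlgn2 had 5, of which 2 were lower and 3 higher on average. Its intron window at chr11:69828001-69829000 (6 sites) held 90.6%, 81.6%, 79.7% and 55.5%, with an edgeR FDR of 0.212. Its intron window at chr11:69836001-69837000 (3 sites) held 37.9%, 37.6%, 44.7% and 61.4%, with an edgeR FDR of 0.434. The lines did not overlap in either window, in opposite directions, and edgeR called neither. Over all 54756 such windows, the lines did not overlap with 344SQR lower in 26514 and higher in 2843. Nlgn1 had no such window.

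The proteins that bind neurexins or neuroligins, or anchor them, were taken as a list of 69 genes, of which 59 had a promoter window. The likelihood ratio test called 52 of their 144 windows lower in 344SQR (36.1%, beside 28.2% of all promoter windows) and 27 higher (18.8%, beside 9.29%). edgeR called 2 of the 144, beside 39 of all 28782, with 28 of the 144 at an unadjusted p under 0.05, beside 2388 of all, and the median difference of the windows was -0.145 points, beside -0.207 over all promoter windows. Clstn3, Cntnap2, Cntnap3, Cntnap4, Flrt1, Flrt3, Il1rapl1, Lrrtm4, Nxph2 and Slitrk2 had no window.

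Among partner windows with at least 5 sites and a difference of at least 10 points that the likelihood ratio test called and whose lines did not overlap, the 12 with the largest differences belong to 5 genes. Lin7a, a scaffold on the neurexin side, held 25.9%, 30.5%, 7.83% and 6.34% in 344SQP replicates 1 and 2 and 344SQR replicates 1 and 2 at 107271706 (10 sites). Lrrtm3, another ligand of neurexins, held 21.2%, 36.8%, 7.76% and 8.74% at 64090274 (8 sites). Both 344SQR tumors were low and close together in these 2 genes. Cbln2, a secreted bridge to neurexins, held 27.0%, 38.6%, 11.6% and 12.9% at 86712065 (12 sites), while its window at 86713048 (9 sites) held 20.2%, 19.7%, 16.7% and 25.8% and was not called by either test. Cacna2d1, a presynaptic calcium channel subunit, held 31.6%, 45.6%, 19.6% and 21.2% at 15934691 (100 sites). Only Lrrtm2, a ligand of neurexins, was higher in 344SQR, with 71.0%, 66.5%, 83.4% and 92.8% at 35215024 (5 sites). None of these 12 windows was called by edgeR, whose lowest FDR among them was 0.142, at Lin7a.

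Both windows that edgeR called belong to Shank3, a scaffold bound to neuroligins, which was singled out after its values were seen. At 89499857 (135 sites, read 20 to 290 times) it held 8.99%, 10.1%, 2.73% and 2.38%, with an edgeR FDR of 0.0361 and a log2 odds ratio of -2.12. Both 344SQR tumors were low, and with any 1 tumor left out edgeR did not call the window, with an FDR up to 0.204, as it then called 0 of all promoter windows. With thinned reads the difference was -6.88 points and edgeR did not call it (FDR 0.0552). The other called window, at 89499623, overlaps this one and was likewise not called with thinned reads (FDR 0.0666). A Shank3 window of a neighbouring start, 89499608 (116 sites), was not called by edgeR with all reads (FDR 0.0543). At the distant Shank3 start 89523761, 108 sites held 46.9%, 35.7%, 37.2% and 14.7% in the same order of tumors. The lines overlapped there, and edgeR did not call that window (FDR 0.740).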

How the data were processed

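The authors trimmed reads with Trim Galore 0.4.1 and cutadapt 1.9.1, mapped them to mm10 with Bismark and Bowtie 1.1.2, and deposited, for each CpG cytosine and strand, the coverage as a read count and the percent of methylated reads. Methylated reads were recovered here from both.

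Transcription starts came from GENCODE M21 basic and curated RefSeq together, a choice made after it was seen that GENCODE alone left Nlgn1 without a site. Each site had a likelihood ratio test of line in a logistic model without other terms, with p no smaller than 2.2e-16, and sites were combined per window by Stouffer's signed z. The promoter window, the coverage minimum and the use of Stouffer's z follow the study's methods; the logistic model, the smallest p and the sign of each site were set here. edgeR 4.0.16 fitted an effect for each tumor and tested line by methylation, and limma 3.58.1 compared log2 ratios with 1 read added (R 4.3.3). All tests were two-sided, were run with scipy 1.17.1 otherwise, and were checked on simulated data, where the likelihood ratio test also called many unchanged windows once tumors of a line were made to differ.

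The members and lists were chosen with earlier results of these data known. Named genes are all members, the partner windows by the rule given with them, and the 5 windows nearest to Nlgn3 over all chromosomes and the 4 nearest on X. Some results, named or counted, are not reported here. The alternatives were other coverage minimums, merged strands, thinned reads, each tumor left out, a replicate block, a narrower window, pooled reads and joined starts. RNA was not analysed here.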

Additional observations from a re-analysis of the deposited data

Results flagged for a closer look

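Calls on chromosome Y are outside every comparison above. The hosts were female, yet calls at CpG cytosines of chromosome Y came to 0.0413% of the autosomal calls in 344SQP replicate 1, 0.0257% in 344SQP replicate 2, 0.0563% in 344SQR replicate 1 and 0.0180% in 344SQR replicate 2. These are 47437, 35071, 89028 and 31130 calls, where a count of 0 would allow up to 3, at most 2.61e-06% of the autosomal calls in any tumor. A read counts once for each cytosine it covers, so the calls are not independent, and reads misplaced from other chromosomes are not excluded. The order of the tumors is that of read depth on X within each line, higher in replicate 1. Where these calls come from was not tested.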

How the results depend on the processing

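The Nlgn3 difference, described without a test, lay between -39.2 and -18.3 points over its 11 alternatives. For Nlgn1 the likelihood ratio call and its direction held in 11 of 12 alternatives, with leave-outs from -22.3 to 0.316 points, the last without 344SQP replicate 2. Nlgn2 at 69837784 was uncalled in all 12, with leave-outs from -0.623 to 0.00638 points. The other differences near 0 changed sign: for Nrxn2 at 6427923, leave-outs ran from -3.70 to 3.21 points (all 4 called by the likelihood ratio test), merged strands gave 0.0561, joined starts 1.78 (called), a coverage minimum of 10 gave -1.97 (called) and pooled reads -0.682 (called). Nrxn3 leave-outs ran from -8.26 to 12.5 points (all 4 called likewise). The second Nlgn2 window ran from -3.72 to 17.6 points. In joined starts, other windows of the gene enter the mean; elsewhere the cause was not tested.

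The likelihood ratio count of 10797 was 2902 with a difference of at least 10 points also required and 6067 with RefSeq starts only, where fewer windows were tested, and lay between 9296 and 11841 with a tumor left out. The 39 edgeR calls became 5 with thinned reads, 19 with RefSeq starts only, 0 with any tumor left out and 0 with limma, which had 2850 at an unadjusted p under 0.05. Outside promoters the 648 calls became 397 at a coverage minimum of 50, 1 with limma and 20 to 10497 with a tumor left out, the last without 344SQR replicate 1. Where 1 tumor of a line is left, it is taken to vary like the other line.

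The tumors share replicate numbers only, in 2 pairs. Over 24333 promoter windows, deviations of same-numbered tumors correlated at 0.824 (Pearson). With a replicate block edgeR called 3453 promoter windows, 0 of them among the 8 tested here, and 13325 windows outside promoters, 10 of them among the 32 (7 lower and 3 higher in 344SQR). A Mantel-Haenszel test with the block called 10512 of all 28782 promoter windows, 1 of the 8 lower and 3 higher, and changed none of the likelihood ratio calls at the windows with the most sites in the 4 tested genes.

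The starts from GENCODE or RefSeq alone, edgeR with the narrower window, limma outside promoters, the partner, marker and X-linked counts, and every alternative of the single partner genes, of the genes nearest to Nlgn3 and of the family windows other than the one with the most sites in each gene were added to the alternatives after the data were seen. Cbln2, Lrrtm2 and Pak3 had no value at a coverage minimum of 50. With 2 tumors of each line the spread is poorly known, each line is 1 line, hosts are 129 while the genome is C57BL/6J, and the sites cover only CpG-rich fragments, so 8 of 24 starts have no value. Coverage of 20 reads leaves wide intervals at single sites.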
